A study of Mus musculus with 42 samples.

Results

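Cell cycle and DNA replication genes were followed through muscle cell differentiation and through arsenite stress and recovery in mouse cells. The set held 43 genes of 13676 protein-coding genes with a polyadenylation site (PAS) read, and they were chosen by name: 8 cyclins, 3 cyclin-dependent kinases, 8 mitotic kinases and checkpoint factors, 10 spindle and cytokinesis genes, 2 chromatin and proliferation markers, 9 replication genes and 3 nucleotide synthesis genes. RNA-seq rows were matched by gene symbol, and 3′READS reads were taken from PASs inside the gene span or up to 4 kb past its end on the same strand, short of the next gene. All 43 genes had reads in both assays.

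The series held 42 libraries from 2 mouse lines, NIH3T3 fibroblasts and C2C12 muscle precursors, both given the strain label C57BL/6. NT cells were untreated, AS cells received 250 µM sodium arsenite for 1 h, and RC4, RC8, RC12 and RC24 cells were then washed and kept in normal medium for 4, 8, 12 or 24 h. NIH3T3 libraries were 3′READS of total RNA, of newly made RNA captured after 1 h in 50 µM 4-thiouridine (4sU), of the RNA left in the flow-through (Ft), of cytoplasmic input and TIA1 immunoprecipitates (RIP), plus RNA-seq. C2C12 libraries were 3′READS of proliferating myoblasts (MB) and differentiated myotubes (MT), as total RNA or as cytoplasmic RNA with and without stress. The titles mark these 2 states as P and D and the source label of both is myoblast, so the state was checked against markers. The study calls the replicates of its total RNA, RIP and differentiation libraries biological, without saying whether they were separate cultures. The 3-experiment and cytoplasmic fits have 1 library per condition and cell state.

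A cell passes from G1 through DNA synthesis and mitosis as cyclins, made and destroyed in turn, switch on cyclin-dependent kinases. D-type cyclins with Cdk4 act in G1, cyclin E and cyclin A with Cdk2 act around DNA synthesis, and cyclin B with Cdk1 drives mitosis. The Mcm helicase is loaded on origins by Cdc6 and Cdt1, and Plk1, the Aurora kinases and the kinesin motors build and divide the spindle. Myoblasts leave this cycle for good when they fuse into myotubes.

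The 3′READS libraries held 1048335 to 6974664 reads at PASs, and the RNA-seq libraries held 17137579 to 25194062 reads on genes. Positions with fewer than 5 reads in a library were not listed, so a gene given here as listed at 0 may have had a few reads. Levels are PAS reads scaled to library size (RPM), a scale that does not depend on gene length. The sum of 12 myotube markers was 76.7 to 259.7 RPM over the 6 MB libraries and 13053 to 24809 RPM over the 6 MT libraries, and Myog, Ckm, Myh1, Myh8, Atp2a1, Tmem8c, Tnnc2 and Tnni2 were listed at 0 in every MB library. All 12 were higher in MT. The sum of 3 myogenic lineage markers was 67.2 to 162 RPM in MB, 158 to 683 RPM in MT and 0 in NIH3T3 total RNA, with 2 of 3 called higher in MT. Fibroblast and mesenchymal markers also moved: the sum of 5 was 146 to 1236 RPM in MB and 2854 to 7537 RPM in MT, with 3 called higher, 1 called lower and Thy1 listed at 0 in all C2C12 libraries. Their part in the differences between MB and MT was not tested.

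The first comparison was of MT with MB in total RNA, with 2 libraries each. Nearly the whole set was lower in MT: 40 of 43 genes fell, 2 rose and 1 was not called (edgeR quasi-likelihood test, adjusted p under 0.05 over 10234 genes). Over all genes tested, 29.5% were called lower and 32.1% higher. The median log2 fold change of the 43 genes was -2.37, against 0.03 over all genes. In RNA from a whole culture, fewer cycling cells and less RNA per cell cannot be told apart.

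Among the cyclins, 6 fell and 2 rose. Ccna2, cyclin A2 of DNA synthesis and early mitosis, stood at 483 and 485 RPM in the MB libraries and at 57.3 and 58.2 RPM in the MT libraries, a log2 fold change of -2.91 (SE 0.10, adjusted p = 5.21e-12). Ccnb1, the mitotic cyclin B1, had 255 and 252 RPM in MB and 32.7 and 41.5 RPM in MT, a log2 fold change of -2.60 (SE 0.13). Ccne1, cyclin E1 of the entry into DNA synthesis, had 74.6 and 80.1 RPM in MB and 9.85 and 11.7 RPM in MT. For these 3 cyclins every MT value lay well under every MB value. Ccnd1, cyclin D1, had 49.0 and 48.6 RPM in MB and was listed at 0 in both MT libraries, so no fold is given.

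The 2 genes that rose were the other D-type cyclins. Ccnd3, cyclin D3, which is known to be kept and raised as muscle cells differentiate, had 424 and 457 RPM in MB and 1882 and 1781 RPM in MT, a log2 fold change of 2.22 (SE 0.09, adjusted p = 2.45e-11). Ccnd2, cyclin D2, had 32.7 and 24.2 RPM in MB and 114 and 109.7 RPM in MT, a log2 fold change of 2.15 (SE 0.15, adjusted p = 9.94e-09). Both genes were above all MB values in both MT libraries, so the 3 D-type cyclins moved in different directions. In MT, Ccnd3 had the highest level of the set.

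The 3 cyclin-dependent kinases also differed among themselves. Cdk1, the mitotic kinase, had 328 and 394 RPM in MB and 57.1 and 51.9 RPM in MT, a log2 fold change of -2.57 (SE 0.12). Cdk4, the partner of the D-type cyclins, had 370 and 343 RPM in MB and 162 and 164 RPM in MT, a log2 fold change of -0.97 (SE 0.10, adjusted p = 5.6e-07). Cdk2 had 24.4 and 32.5 RPM in MB and 24.9 and 23.9 RPM in MT, and its groups overlapped. Its log2 fold change was -0.08 (SE 0.19, adjusted p = 0.751), the 1 gene of the set that was not called.

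All 8 mitotic kinases and checkpoint factors fell, with a median log2 fold change of -2.78. Cdc20, the activator of the anaphase-promoting complex, had 262 and 239 RPM in MB and 20.7 and 18.5 RPM in MT (log2 fold change -3.51, SE 0.13). Birc5, survivin of the chromosomal passenger complex, had 673 and 595 RPM in MB and 69.0 and 73.6 RPM in MT. Plk1, the Polo-like kinase of mitotic entry, had 71.8 and 52.5 RPM in MB and 9.08 and 7.45 RPM in MT. In each of these genes the MB and MT values were far apart relative to the difference within a group. All 10 spindle and cytokinesis genes fell as well, with log2 fold changes of -1.78 (Nusap1) to -2.88 (Kif23, a kinesin of the midbody).

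All 9 replication genes fell, with a median log2 fold change of -2.51. Mcm5, a helicase subunit, had 209 and 197 RPM in MB and 22.6 and 20.3 RPM in MT (log2 fold change -3.09, SE 0.13). Mcm6 had 443 and 434 RPM in MB and 69.0 and 69.3 RPM in MT. Pcna, the sliding clamp, had low counts at its PASs, 16.0 and 16.8 RPM in MB and 7.0 and 3.2 RPM in MT (log2 fold change -1.56, SE 0.34). Cdc6 had 7.7 and 5.4 RPM in MB and was listed at 0 in both MT libraries, and Mcm4 and Ccne2 were listed at 0 in 1 MT library each. Mcm4 lost its call with DESeq2, where its adjusted p was 0.221. The nucleotide synthesis genes Rrm1, Rrm2 and Tyms had log2 fold changes of -2.12, -1.84 and -1.82, and Mki67 and Top2a had -2.68 and -2.02, all called lower.

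**Figure D1:**
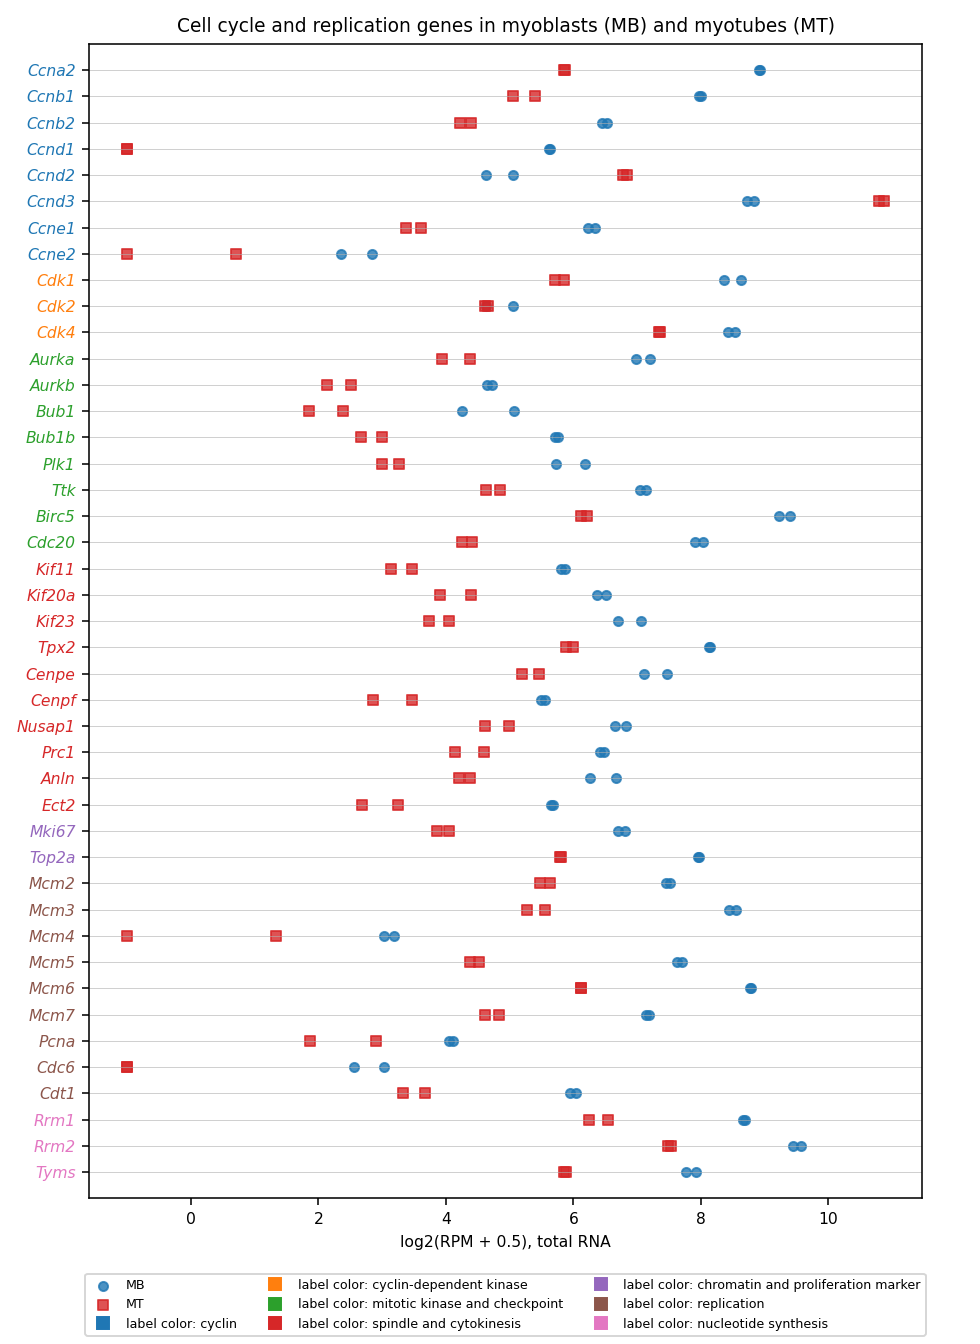
The level of each of the 43 genes in total RNA of C2C12 cells, on a log2 scale of RPM plus 0.5, with 1 point for each of 2 MB and 2 MT libraries; a point at the left edge is a gene listed at 0. The MT points lie left of the MB points in 40 genes, right of them in Ccnd2 and Ccnd3, and among them in Cdk2.

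Genes of the wider pathway, taken from 4 lists chosen by function, were measured beside the set. Of the other replication genes, 29 of 32 tested fell and 1 rose, and of the other mitotic genes, 22 of 23 fell and 0 rose. The shares over all genes in this comparison were 29.5% lower and 32.1% higher. Gmnn, the inhibitor of Cdt1, had 86.3 and 98.3 RPM in MB and 5.4 and 8.4 RPM in MT, and Kif22, a chromosome-binding kinesin, had 162 and 147 RPM in MB and 17.9 and 22.8 RPM in MT. Both genes moved with the set. Of the cell cycle brakes, 8 of 13 rose and 4 fell. Cdkn1a, the inhibitor p21, had 400.2 and 409 RPM in MB and 3619 and 3348 RPM in MT, and Gadd45a had 15.4 and 23.2 RPM in MB and 1321 and 1309 RPM in MT. Of the E2F, MYB and DREAM regulators, 9 of 15 fell and 2 rose. Foxm1, an activator of mitotic genes, had 209.6 and 207 RPM in MB and 18.7 and 19.6 RPM in MT, whereas E2f2 had 45.9 and 41.9 RPM in MB and 165 and 143 RPM in MT.

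Cytoplasmic RNA gave a second comparison of MT with MB, in other libraries and fitted with treatment as a term. It held 1 library each of NT at 0 h, NT at 4 h, AS and RC4 in both cell states. All of them carry replicate number 1, so the spread in this fit is not that between replicates. Here 36 of 42 genes tested fell and 2 rose, against 14.9% of all 9613 genes called lower and 20.7% called higher. The median log2 fold change of the set was -1.84, and that of all genes was 0.13. Ccnd3 had 422, 315, 350.4 and 191 RPM in MB and 1517, 1154, 1217 and 644 RPM in MT, so that every MT value was above every MB value (log2 fold change 1.78, SE 0.16, adjusted p = 1.16e-05). Ccnd2 had 32.7 to 58.8 RPM in MB and 75.5 to 112.6 RPM in MT (log2 fold change 0.95, SE 0.21, adjusted p = 0.00527). It was not called with the NT libraries alone (adjusted p = 0.133) or without the 4 kb extension (adjusted p = 0.111).

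Cdk2 again did not differ beyond its spread, with a log2 fold change of 0.07 (SE 0.28, adjusted p = 0.874). Pcna (log2 fold change -0.68, adjusted p = 0.184), Ccne2 (adjusted p = 0.221) and Mcm4 (adjusted p = 0.231) were the other genes not called, and Cdc6 was listed at 0 in all 8 libraries. Ccnd1, listed at 0 in total RNA of MT, had 4.60 to 10.3 RPM in cytoplasmic RNA of MT and 17.0 to 39.4 RPM in MB (log2 fold change -2.01, SE 0.28, adjusted p = 0.000259). The calls of Aurkb, Bub1 and Cenpf were lost with the NT libraries alone, that of Cenpf also with DESeq2, and those of Aurkb, Cenpf and Nusap1 without single libraries, among them MB NT at 0 h and MB AS for all 3. Of the wider lists, 23 of 31 other replication genes and 20 of 22 other mitotic genes fell, and 7 of 13 brakes rose. The shares over all genes were 14.9% lower and 20.7% higher.

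The next comparison was of AS with NT, and none of the 43 genes was called after 1 h of arsenite. In NIH3T3 total RNA, with 3 libraries each, 0 of 42 genes tested passed the edgeR test, and 0 of them had an unadjusted p under 0.05. The background was as low: 0.0% of 9237 genes were called higher and 0.0% lower, 19 genes had an unadjusted p under 0.05, and DESeq2 called 0 and had 28 under 0.05. This fit had no term for the replicate number, although same-numbered NT and AS libraries deviated together (correlation 0.777 to 0.850). A lack of calls in it therefore does not show that the set was unchanged. With that term added, 0 genes of the set were called too. The share of all genes called in that fit is not given, so its lack of calls does not show an unchanged set either. The median log2 fold change of the set was -0.05 without the term. Within the same replicate number, the median difference was -0.25, -0.06 and 0.05 for replicates 1, 2 and 4.

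The same question was asked over 3 experiments that also held recovery: NIH3T3 total RNA of replicate 4, MB cytoplasmic RNA and MT cytoplasmic RNA, in 11 libraries with the experiment as a term. The replicate 4 libraries are shared with the comparison above. Here 0 of 41 genes tested were called at AS, against 0.227% of 10119 genes called higher and 0.00988% called lower. The smallest adjusted p in the set was 0.451, and 2 genes, Anln and Cdt1, had an unadjusted p under 0.05. DESeq2 also called 0 genes of the set. Cdt1, the origin licensing factor, had 85.7 RPM in NT and 119 RPM in AS of NIH3T3 total RNA, 35.8 and 36.5 against 42.6 RPM in MB, and 8.6 and 4.3 against 19.8 RPM in MT (log2 fold change 0.74, SE 0.29, adjusted p = 0.485). In all 3 experiments AS lay above NT, but not beyond the threshold over all genes. In cytoplasmic input RNA of NIH3T3, with 2 libraries each, 0 of 43 genes were called, against 0.0103% called higher and 0.0% called lower over 9736 genes. Unadjusted, 0 genes of the set and 157 of all genes had a p under 0.05, and DESeq2 called 0 of the set. This fit too had no term for the replicate number (r = 0.47 between same-numbered input libraries of AS and NT).

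Recovery gave another pattern. The time course of NIH3T3 total RNA had 1 library for each time and so no test (NT and AS are the replicate 4 libraries used above). Its NT library was of 0 h, with no untreated library at later times, so recovery and time in culture cannot be told apart. At RC4, 39 of 43 genes were below NT, and 22 were at least 2-fold lower. Of 9538 genes with at least 5 RPM in a library, 16.6% were as much lower at that time. No gene of the set was at least 2-fold higher, against 10.1% of all genes. The median log2 ratio to NT was -1.33 in the set and -0.22 over all genes, and scaling by TMM brought these to -1.11 and 0.0. With the mean of the 3 NT libraries as control, 22 genes were at least 2-fold lower at RC4 and 3 higher. The shares over all genes were 22.1% and 19.0%, and the median of the set was -1.01.

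The values of single genes fell at RC4 and were near NT again by RC8 or RC12. Ccna2 had 219 RPM in NT, 240.1 in AS, 34.5 in RC4, 206 in RC8, 228 in RC12 and 236 in RC24. Plk1 had 85.7, 103 and 8.0 RPM in NT, AS and RC4, and 72.4, 88.9 and 91.6 RPM at the 3 later times. Both genes were lowest at RC4 and within 1.5-fold of NT in every other library. Cdk1 had 185 RPM in NT, 231 in AS, 41.9 in RC4, 177 in RC8, 206 in RC12 and 272 in RC24. Ccne1 had 17.4, 13.6 and 2.7 RPM in NT, AS and RC4, and 23.3, 19.8 and 18.1 RPM later. Ccnd3, the cyclin that rose in MT, had 368, 412 and 127 RPM, then 254, 315 and 335 RPM. Aurkb and Ttk, kinases of chromosome attachment and the spindle checkpoint, had 28.1 and 21.4 RPM in NT and were listed at 0 at RC4.

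RC4 was the library with the lowest level for 36 of the 43 genes. At AS, 1 gene was at least 2-fold lower (Cenpf, against 9.4% of all genes). At RC8, 1 gene was as low (Ccnb2, against 5.32%), and the median log2 ratio of the set was -0.32. At RC12 and RC24, 0 genes were, against 4.34% and 7.31%, and the medians were 0.05 and 0.12. The 1 gene at least 2-fold higher at RC8, RC12 and RC24 was Cdc6, which was listed at 0 in NT, AS and RC4 and had 4.4, 10.2 and 10.5 RPM later; 10.4%, 7.17% and 5.25% of all genes were as much higher. With the mean of the 3 NT libraries as control, 9 genes were at least 2-fold higher at each of AS, RC8, RC12 and RC24. Over all genes, 17.5%, 23.1%, 20.2% and 18.8% were as much higher. At the same times, 6, 9, 5 and 3 genes were at least 2-fold lower, against 15.8%, 10.9%, 10.1% and 14.2%. Ccne2 was listed at 0 throughout.

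In these single 3′READS libraries, the median log2 ratio at RC4 differed among roles. It was -1.25 in cyclins, -1.62 in cyclin-dependent kinases, -1.71 in mitotic kinases and checkpoint factors, -1.64 in spindle and cytokinesis genes and -1.51 in the 2 proliferation markers. It was -0.62 in replication genes and -0.68 in nucleotide synthesis genes. Mcm3 had 612 RPM in NT and 415 RPM in RC4, and Mcm2 had 123 and 93.3 RPM. Cdk4 had 337 RPM in NT and 390 RPM in RC4, and Ccnd2 had 110.5 and 146 RPM, the 2 genes above NT that were listed in both libraries.

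**Figure D2:**
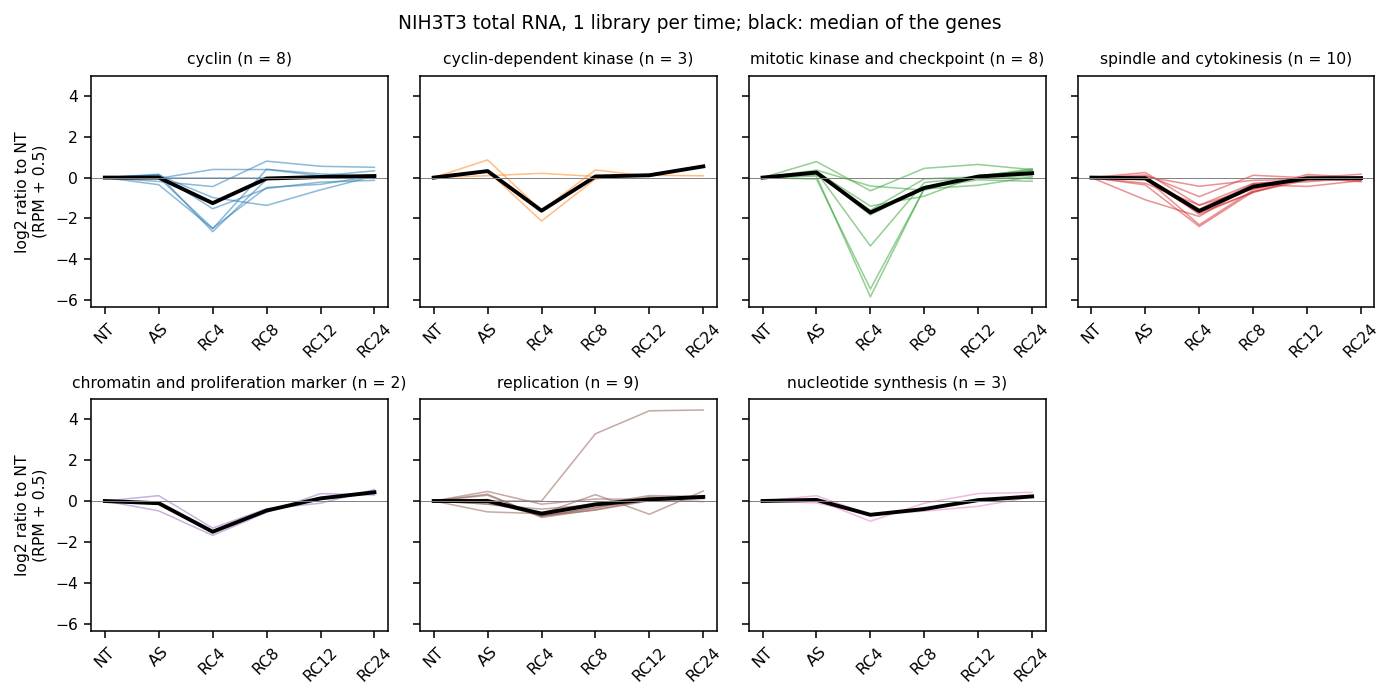
The log2 ratio to the NT library (RPM plus 0.5) of each gene in NIH3T3 total RNA, in 1 panel per role, with 1 library per time and the median of the genes in black. The medians are lowest at RC4 and near 0 by RC12; the 2 lowest lines, Aurkb and Ttk, and the line that rises late, Cdc6, are genes listed at 0 in a library, whose size depends on the 0.5 added.

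Newly made RNA fell further. In the 4sU fraction, with the mean of 2 NT libraries as control and 1 RC4 library, 42 of 43 genes were below NT and 33 at least 2-fold lower, against 20.3% of 9968 genes. None was at least 2-fold higher, against 10.0%. The median log2 ratio of the set was -2.44, and that of all genes was -0.28. With TMM scaling, 29 genes were at least 2-fold lower, against 13.2% of all genes, and the median of the set was -2.15. At AS, 1 gene was at least 2-fold lower (Aurkb, against 10.9%) and 0 higher (against 3.56%), and the median was -0.02.

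Ccna2 had 263 and 286 RPM in the NT libraries of the 4sU fraction, 268 RPM at AS and 14.4 RPM at RC4. Ccnb1 had 175 and 176 RPM in NT, 159 at AS and 9.5 at RC4. Plk1 had 28.2 and 26.5 RPM in NT, 28.1 at AS and 1.1 at RC4, the last from 5 reads. Top2a, the topoisomerase that untangles chromosomes, had 479 and 573 RPM in NT, 389.7 at AS and 40.2 at RC4. In these genes AS was near the NT values and RC4 far under them. Among genes listed at RC4, the lowest log2 ratios were those of Ccna2 (-4.20), Ccnb1 (-4.14), Plk1 (-4.10), Kif11 (-3.70) and Top2a (-3.69), while Cdc6, at 9.1 and 8.3 RPM in NT, was listed at 0. Cdk4 had 460 and 428 RPM in NT and 437 at RC4, Mcm2 had 48.9 and 70.4 RPM in NT and 52.6 at RC4, and Cdt1 had 60.5 and 62.6 RPM in NT and 51.0 at RC4, all within 1.5-fold of NT.

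In the Ft fraction, 40 of 43 genes were below NT at RC4 and 30 at least 2-fold lower, against 25.3% of 9555 genes. None was at least 2-fold higher, against 8.95%. The median log2 ratio was -1.62, against -0.43 over all genes. With TMM scaling, 25 were at least 2-fold lower, against 14.7% of all genes, and the median of the set was -1.24. Ccne1 had 102.5 and 98.6 RPM in NT and 6.5 at RC4. Ccnd1 had 24.5 and 23.5 RPM in NT and 1.6 at RC4, the last from 5 reads. These 2 G1 cyclins had the lowest log2 ratios of the set in Ft, -3.85 and -3.53, and in Ft both were lower than in 4sU. The fall of Ccnd1 was smaller elsewhere: its log2 ratio at RC4 was -1.56 in 4sU, -0.44 in total RNA and -1.16 in RNA-seq. For Ccne1 these were -3.20, -2.51 and -3.99. At AS, 0 genes were at least 2-fold lower, against 4.27%, and 2 were higher, against 4.02%: Ccne2 and Cdk2, both under 8 RPM.

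RNA-seq of NIH3T3 total RNA, counted on coding sequence with 1 library per condition, gave smaller falls. At RC4, against the NT library of 4 h, 10 genes were at least 2-fold lower and 2 at least 2-fold higher, against 14.8% and 15.4% of 10829 genes. The median log2 ratio of the set was -0.25 with median-ratio scaling. Scaled by library total, the median was -0.81 over all genes and -1.06 in the set. With that scaling, 22 genes of the set were at least 2-fold lower, against 41.5% of all genes. The NT libraries differed in the set too: 41 of 43 genes were higher at 4 h than at 0 h, with a median log2 ratio of 0.23, against 0.00 over all genes. With the mean of both NT libraries as control, 8 genes were at least 2-fold lower at RC4 and 3 higher. The shares over all genes were 14.3% and 15.0%, and the median of the set was -0.18. At AS, 0 genes were at least 2-fold lower or higher, against 1.36% and 3.36%.

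Ccne1 had 567 reads in NT and 30 reads at RC4 in RNA-seq, or 594 and 37.4 normalized reads, a log2 ratio of -3.99. Cdc6 (-1.97), Cdk1 (-1.81), Rrm2 (-1.69), Plk1 (-1.44), Ccnb1 (-1.33) and Ccna2 (-1.23) were also at least 2-fold lower. These genes were lower under each of the scalings tried. Mcm2 had 1587 normalized reads in NT and 3431 at RC4 and Cdt1 had 210.5 and 435, log2 ratios of 1.11 and 1.05 that became 0.31 and 0.24 when scaled by library total. For Ccne2 and Rrm1, the sign turned with that scaling: 0.76 became -0.04 and 0.58 became -0.23. The roles also stood in another order in RNA-seq: the median log2 ratio at RC4 was -0.95 in cyclins, -0.98 in cyclin-dependent kinases, -0.34 in mitotic kinases and checkpoint factors, -0.17 in spindle genes, 0.15 in replication genes and -0.62 in nucleotide synthesis genes. It was -0.44 in the list of other replication genes and -0.37 in that of other mitotic genes. 3′READS and RNA-seq count different parts of a transcript, and the RC4 libraries came from different replicates.

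**Figure D3:**
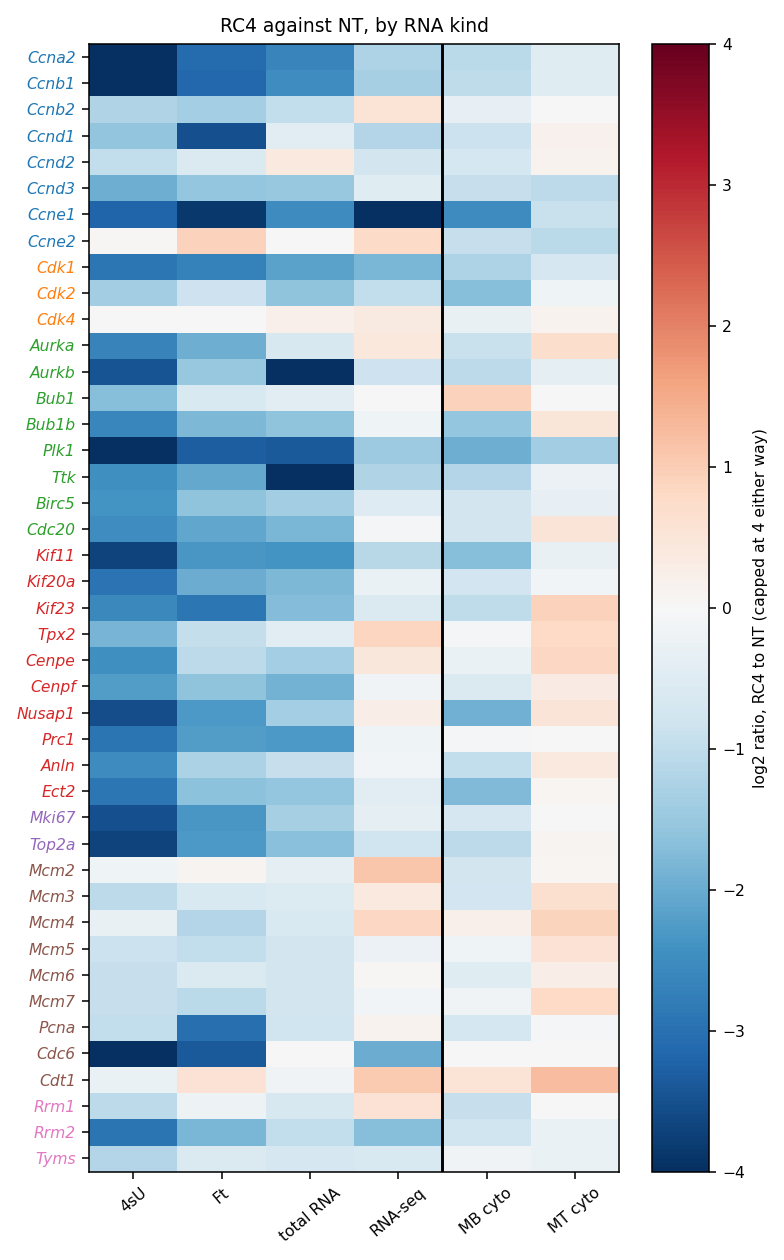
The log2 ratio of RC4 to NT of each gene in 4 kinds of NIH3T3 RNA and in cytoplasmic RNA of MB and MT, 1 RC4 library each, blue for lower and red for higher and capped at 4 either way; RNA-seq is scaled by median ratio and the other columns are RPM plus 0.5. The 4sU column is darkest, with a median of -2.44, and the MT column is near white, with a median of 0.01. Where a gene is listed at 0 in some of a column's libraries, the size depends on the 0.5 added. These are Aurkb and Ttk in total RNA, Cdc6 in 4sU and Ft, Pcna and Ccne2 in Ft, and Ccne2 and Mcm4 in MT.

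Myoblasts and myotubes were compared in recovery from their cytoplasmic RNA. In MB, 39 genes were below NT at RC4 and 14 at least 2-fold lower, against 23.1% of 8931 genes, with 0 at least 2-fold higher, against 8.36%. The median log2 ratio was -0.77, against -0.36 over all genes. In MT, 20 genes were below NT and 3 at least 2-fold lower, against 12.0% of 9353 genes, with 1 at least 2-fold higher (Cdt1), against 6.97%. The median was 0.01, against -0.17 over all genes. In MB, the 2 NT libraries also differed from each other: 7 genes were at least 2-fold lower at 4 h than at 0 h, against 9.56% of all genes. At AS, 0 genes in MB and 1 in MT were at least 2-fold lower, against 3.38% and 3.74%, and 2 and 3 were at least 2-fold higher, against 11.8% and 6.45%.

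The 3 genes lower in MT were Plk1, Ccnd3 and Ccne2. Ccne2 was listed at 0 in NT at 0 h and at RC4 of MT and had 1.8 RPM in NT at 4 h. Its fall thus rests on 5 reads in 1 library and on the 0.5 added. Plk1 had 45.5 and 49.8 RPM in NT of MB, 57.8 at AS and 12.0 at RC4, and 8.6 and 9.9 RPM in NT of MT, 5.8 at AS and 3.2 at RC4. Ccnd3 had 422 and 315 RPM in NT of MB and 191 at RC4, and 1517 and 1154 RPM in NT of MT and 644 at RC4. Both genes were lower at RC4 than in either NT library in both cell states, from levels that differed between the states. Nusap1, a spindle microtubule protein, had 57.0 and 43.5 RPM in NT of MB and 12.9 at RC4, and 11.1 and 14.9 RPM in NT of MT and 18.9 at RC4, so that RC4 was under both NT values in MB and above both in MT. The difference between MT and MB in the response to RC4 was tested as an interaction. 0 of 42 genes were called, as were 0.0% of 10126 genes in each direction, while DESeq2 called 13 genes of all tested and 0 of the set. The median difference in the set was 0.62 on the log2 scale with 10 genes at an unadjusted p under 0.05, and the smallest adjusted p was 0.517 (Nusap1, 2.30, SE 0.53). Unadjusted, 876 of all genes had a p under 0.05. A difference between the states was not shown for any gene of the set.

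Over the 3 experiments together, RC4 could be tested against NT. The NIH3T3 and C2C12 libraries are those described above, so this test is not independent of those values. For NIH3T3, the NT library was of 0 h alone. Of 41 genes tested, 5 fell and 0 rose, against 3.07% of 10119 genes called lower and 5.67% called higher. The median log2 fold change was -0.38 in the set and -0.05 over all genes, and 32 genes were below 0. Within the experiments, the median difference was -1.33 in NIH3T3, -0.77 in MB and 0.01 in MT.

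The 5 genes were Plk1 (log2 fold change -2.10, SE 0.38, adjusted p = 0.00458), Ccne1 (-1.62, SE 0.31, adjusted p = 0.00644), Ccnd3 (-0.90, SE 0.19, adjusted p = 0.0121), Cdk1 (-1.01, SE 0.27, adjusted p = 0.0346) and Kif11, the kinesin that pushes spindle poles apart (-1.08, SE 0.31, adjusted p = 0.0490). Ccne1 had 71.5 and 77.1 RPM in NT of MB and 12.4 at RC4, and 26.6 and 22.0 RPM in NT of MT and 12.8 at RC4. For Plk1, Ccne1, Ccnd3, Cdk1 and Kif11, RC4 lay under each NT library of its own experiment. Ccna2 (-0.98, adjusted p = 0.0732) and Ccnb1 (-0.93, adjusted p = 0.0879) missed the threshold. The count depended on single experiments: without MB it was 0, and without NIH3T3 replicate 4 it was 3 (Cdk1 and Kif11 were lost). Without MT it was 4, with Ccnd3 and Cdk1 lost, and DESeq2 called 8. The share of all genes called in these alternative fits is not given, so their counts cannot be set against a background.

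Against AS in place of NT, RC4 was lower in 4 of 41 genes and higher in 0, against 2.07% and 3.83% of all genes. These were Plk1 (log2 fold change -2.17, adjusted p = 0.00960), Ccne1 (-1.45, adjusted p = 0.0268), Ccnd3 (-0.87, adjusted p = 0.0327) and Cdk1 (-1.16, adjusted p = 0.0393). The RC4 libraries are shared with the comparison against NT. Without MB, and likewise without NIH3T3 replicate 4, 0 genes were called, and DESeq2 called 11, again without a share over all genes. Of the wider lists in RC4 against NT, 5 of 23 other mitotic genes fell and 1 rose, and 2 of 32 other replication genes fell and 1 rose. Over all genes in RC4 against NT, 3.07% were called lower and 5.67% higher. Cdc7, the kinase that fires origins, had 28.1 RPM in NT and 8.5 at RC4 of NIH3T3. Its log2 fold change over the 3 experiments was -2.0 (SE 0.31). Ccnf, cyclin F of a ubiquitin ligase, had 68.3 and 93.3 RPM in the same NIH3T3 libraries. Its log2 fold change over the 3 experiments was 2.21 (SE 0.45), larger than the rise in NIH3T3, and its C2C12 values are not printed here. Of the brakes, 2 of 13 rose and 1 fell, and of the E2F, MYB and DREAM regulators, 1 of 15 rose and 1 fell. Gadd45a had 20.8 RPM in NT and 82.7 at RC4 of NIH3T3, and 32.7 and 18.5 RPM in NT of MB and 348 at RC4 (log2 fold change 2.56, SE 0.41).

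Since many of these genes fell together, their promoters were read from RefSeq (GRCm38.p6) from 250 bases before to 50 after the annotated start, which matched 35 of 43 genes. Short motifs of 3 kinds were searched on both strands: CHR (TTTGAA or TTTAAA), the CCAAT box (CCAAT) and an E2F motif (GCGGGAA or GCGCGAA), whose matches may overlap by some bases. CHR and CCAAT are known from late cell cycle promoters and E2F motifs from genes of DNA synthesis. CHR letters were in 22 of 35 promoters (62.9%), against 27.8% of 27025 promoters. CCAAT letters were in 26 (74.3%, against 37.9%) and E2F letters in 9 (25.7%, against 6.06%). By role, CHR letters were in 6 of 7 mitotic kinase and checkpoint promoters, 7 of 8 spindle promoters and 2 of 8 replication promoters. E2F letters were in 6 of 8 replication promoters and in 0 of the 7 and 0 of the 8. A match is a description of the letters and not of a site in use.

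Windows of 30 bases show a CHR motif of 5 genes that were low at RC4 and an E2F motif of 2 replication genes, with the motif in capitals and each sequence on the strand of the gene, all upstream of the start on GRCm38.p6.
Ccnb1, chr13:100786511-100786540, minus strand: agcggcccggggTTTAAAcctaagcccggc
Plk1, chr7:122159394-122159423, plus strand: gcgggtttgtatTTTAAAtccccgcggcca
Cdk1, chr10:69352913-69352942, minus strand: ctttaccgcggcgagTTTGAAactgctggc
Kif11, chr19:37376351-37376380, plus strand: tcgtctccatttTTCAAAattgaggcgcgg
Ccne1, chr7:38107491-38107520, minus strand: ccgcgcgctgggattTTTAAAtgtcccgct
Mcm5, chr8:75109346-75109375, plus strand: cgccaagaactTTCGCGCcaaaacgtccag
Mcm6, chr1:128359730-128359759, minus strand: ggacgggtttgGCGCGAAgtagctcagctc
Capitals in Kif11 and Mcm5 are the motif read on the opposite strand. The motifs do not part these genes: Mcm5 and Cdk1 held all 3, Ccnb1, Plk1 and Kif11 held CHR and CCAAT, Mcm6 held CCAAT and E2F, and Ccne1 held CHR alone. Cdk4 and Ccnd3, of which the first did not fall at RC4 and the second did, held none of these 3 motifs in the window.

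Pre-existing and newly made RNA were compared in untreated NIH3T3 cells as Ft against 4sU, with 2 libraries each and the pair of each time as a term, which leaves 1 residual degree of freedom. All of these libraries carry replicate number 2, so the adjusted p values of this fit do not measure the spread between replicates. A message that is long-lived stands higher in Ft and one that turns over fast stands higher in 4sU, and the number of uridines, which affects capture, was not adjusted for. Of 43 genes, 16 were higher in Ft and 12 lower, against 28.0% and 30.3% of 9875 genes. The share of the set called was therefore near the background in both directions. The roles differed: 8 of 10 spindle and cytokinesis genes were lower in Ft and 1 higher, whereas 5 of 9 replication genes were higher and 1 lower.

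Cdk4 had 460 and 428 RPM in 4sU and 1326 and 1187 RPM in Ft, the largest ratio toward Ft (log2 fold change 1.67, SE 0.12, adjusted p = 8.21e-41). Mcm2 had 48.9 and 70.4 RPM in 4sU and 108 and 107 RPM in Ft (log2 fold change 1.01, SE 0.17). Cenpf, a kinetochore protein, had 88.7 and 85.1 RPM in 4sU and 28.6 and 28.9 RPM in Ft (log2 fold change -1.43, SE 0.19). In these 3 genes the fractions did not overlap. Kif11 (-0.80), Anln (-0.87), Ect2 (-0.85) and Mki67 (-0.95) stood lower in Ft, and Ccnd3 (0.91), Cdc20 (1.01) and Tyms (1.05) stood higher. Ccna2, Cdk1 and Rrm2 were not called.

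**Figure D4:**
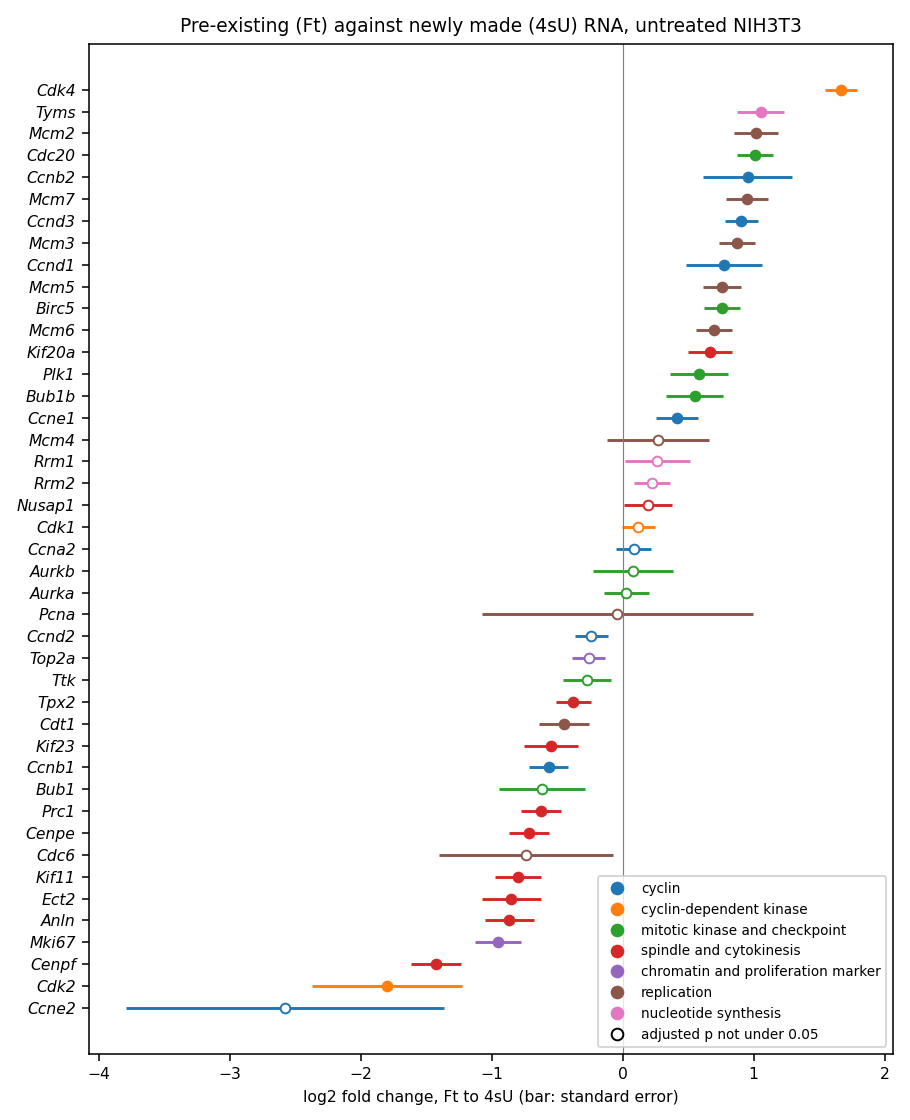
The log2 fold change of Ft to 4sU in untreated NIH3T3 cells with its standard error, for the 43 genes in order, from 2 libraries per fraction; open points have an adjusted p not under 0.05. Cdk4 lies farthest right at 1.67, most replication genes lie right of 0 and most spindle genes left of it.

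The site of polyadenylation was compared for genes with at least 2 sites in the 3′UTR or its 4 kb extension. The most used PAS of each gene had AATAAA in 32 of 43 genes (74.4%) and ATTAAA in 6 (14.0%) within 45 nt upstream, against 66.6% and 16.2% of 12716 genes. A gene was called where Fisher's exact test on the reads of its 2 main PASs (p under 0.05, unadjusted) and a change over 5 percentage points agreed in direction in both replicate pairs. In MT against MB, 15 genes of the set had enough reads and 1 was called with more use of the distal site, Ccna2, against 9.33% of 3131 genes. With 0 called toward the proximal site, the background was 3.29%.

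The distal PAS of Ccna2 took 33.9% and 38.1% of reads in the 2 MB libraries and 44.3% and 53.1% in the 2 MT libraries, so that both MT values were above both MB values (Fisher's exact test per pair, p = 0.00325 and p = 5.24e-06). The 2 sites lie at 36464900 and 36463787 on the minus strand of chromosome 3 (mm9), 1113 nt apart and 259 and 1372 nt past the stop codon in the 3′UTR. Reads at both sites fell, from 1023 and 1210 to 123 and 121 reads at the proximal site and from 525 and 744 to 98 and 137 at the distal site. In untreated NIH3T3 cells the distal site took 14.4% and 6.96%. The 30 bases around the signal, in capitals, show that both sites carry the same hexamer.
Ccna2 proximal, chr3:36464904-36464933, minus strand, mm9: caagatattgagAATAAActgatttggaaa
Ccna2 distal, chr3:36463795-36463824, minus strand, mm9: tatatgtgtgtaAATAAAgcatgcaaatta
Mcm2 distal, chr6:88833471-88833500, minus strand, mm9: ttaatagatttgAATAAAacctaaatagcg

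In AS against NT in NIH3T3 total RNA, replicates 1 and 2, 21 genes had enough reads and 1 was called with more use of the proximal site, Mcm2, against 2.67% of 2804 genes. With 0 called toward the distal site, the background was 0.749%. The distal PAS of Mcm2, whose signal is printed above, took 80.1% and 77.9% of reads in NT and 64.5% and 70.2% in AS (Fisher's exact test per pair, p = 5.26e-05 and p = 0.00488). Its 2 sites lie 237 nt apart in the 3′UTR, at 88833705 and 88833468 on the minus strand of chromosome 6 (mm9), and neither hexamer was found before the proximal one. Mcm2 was not called where a change over 10 percentage points was asked for. Over the genes with 2 sites at RC4, the median RED (log2 ratio of distal to proximal PAS reads, RC4 minus NT) was 0.25 in 10 genes of the set and -0.25 over 2260 genes in NIH3T3 total RNA, and -0.25 in 16 genes and -0.46 over 2194 genes in MB. Single-library values of so few genes are given as a description.

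**Figure D5:**
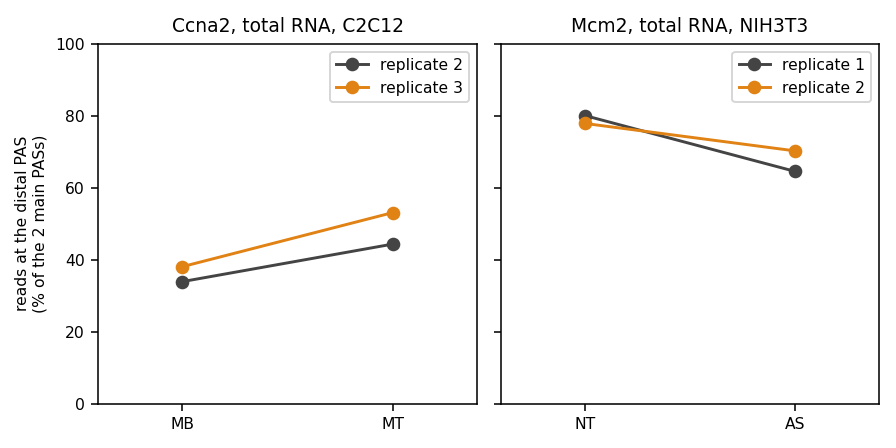
The share of reads at the distal of the 2 main PASs, in percent, for Ccna2 in MB and MT and for Mcm2 in NT and AS, with 1 line per replicate number. Both lines rise in Ccna2, to 44.3% and 53.1%, and both fall in Mcm2, to 64.5% and 70.2%.

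TIA1, an RNA-binding protein of stress granules, was immunoprecipitated from NIH3T3 cells with 2 libraries per condition, and the input was a part of the same lysate. Without a term for the replicate number, 1 of 43 genes was lower in TIA1 than in input of NT cells and 0 higher, against 1.49% and 1.81% of 9736 genes. In AS, 0 genes were called, against 0.544% lower and 0.257% higher, 5 had an unadjusted p under 0.05, and DESeq2 called 1 higher and 1 lower. With the replicate number as a block, 5 genes were lower and 3 higher in NT, against 9.34% and 9.22% of all genes. In AS, 2 were lower and 2 higher, against 7.34% and 9.61%. With the block, the share of the set called was near that background in NT and under it in AS, in both directions.

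Birc5 had 509 and 671 RPM in input and 252.5 and 148 RPM in TIA1 of NT cells. It had 518 and 552 RPM in input and 139 and 165 RPM in TIA1 of AS cells. In each condition both TIA1 values lay under both input values. Its log2 fold change in NT was -1.71 (adjusted p = 0.0466 without the block and 0.00384 with it), and in AS -1.93 (adjusted p = 0.0515 and 0.00289). Without the block, the call in NT was lost when any 1 of the 8 libraries was left out.

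Ccnd2 stood on the other side. It had 141 and 158 RPM in input and 698 and 351 RPM in TIA1 of NT cells, and 129.7 and 145 RPM in input and 555 and 266 RPM in TIA1 of AS cells, so that every TIA1 value was above every input value. With the block, its log2 fold change was 1.58 (SE 0.35, adjusted p = 0.0103) in NT and 1.4 (SE 0.35, adjusted p = 0.0204) in AS. The other genes called with the block in NT were Cenpf (1.53) and Cenpe (1.01), both higher, and Cdt1 (-2.15), Mcm2 (-1.38), Tyms (-1.37) and Aurka (-1.03), all lower. In AS they were Cdk2 (1.70) and Tyms (-1.45). None of these but Birc5 in NT was called without the block.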

How the data were processed

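Mouse 3′READS (38 libraries) and RNA-seq (4 libraries) were analysed. The deposited values are raw read counts without normalization: the authors counted 3′READS reads per PAS cluster after mapping to mm9 with Bowtie2, and RNA-seq reads per gene on coding sequence after mapping with STAR. The submitters' processing notes also name cutadapt. Groups came from the sample titles, and the study calls the C2C12 P and D libraries MB and MT. Here, positions within 24 nt were joined, and 83916 clusters were assigned by strand to coding genes of mm9 with a 4 kb extension, covering 92.4% of reads. The gene set and lists were chosen with earlier results of these data known.

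Genes were tested by edgeR 4.0.16 (quasi-likelihood test, TMM, filterByExpr) in R 4.3.3 with Benjamini-Hochberg adjustment over all genes. SE is the absolute log2 fold change over the square root of F. Single libraries were compared as log2(RPM + 0.5), which understates the change of low genes, and RNA-seq was scaled by median ratio. Any of the 43 genes could be named, and of each list the genes with the smallest adjusted p, up to 3 in MT against MB (total RNA) and up to 2 in RC4 against NT. NT and AS replicate numbers pair the NIH3T3 total libraries (correlation of deviations 0.777 to 0.850 over 3 pairs). With a replicate block, 0 genes of the set were called as without it, and the share of all genes called with the block is not given. Input and TIA1 libraries of a replicate and condition come from 1 lysate (r = 0.31 in NT and 0.34 in AS), so TIA1 results are given with and without the block. The scripts were tested on simulated data. DESeq2 1.42.0 was an alternative.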

Additional observations from a re-analysis of the deposited data

How the results depend on the processing

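For the genes called in 6 edgeR comparisons, 1107 values under alternatives were computed: 1052 kept their direction and call, 55 kept the direction but lost the call, and 0 reversed. Counts moved by over 1.5 times as follows, and the cause was not tested. They are given without the share of all genes called in the same fit. MT against MB in cytoplasmic RNA: 1 gene higher without the 4 kb extension and 1 with the NT libraries only. RC4 against NT: 8 lower with DESeq2, and 0 to 4 leaving out 1 experiment (0 without MB, 3 without NIH3T3 replicate 4). RC4 against AS: 11 lower with DESeq2, and 0 to 4 leaving out 1 experiment (0 without MB or without NIH3T3 replicate 4). TIA1 in NT: 1 higher with DESeq2 and 1 with no low count filter, 2 lower with either, 0 lower without the extension, and 0 to 0 lower leaving out 1 library. TIA1 in AS: 1 higher with DESeq2 and 1 with no filter, 1 lower with RLE factors, DESeq2, no filter or no extension, and 0 to 1 lower leaving out 1 library.

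With the mean of 3 NT libraries in place of replicate 4, 9 genes were at least 2-fold higher at each of AS, RC8, RC12 and RC24. At these times, 6, 9, 5 and 3 were at least 2-fold lower. The shares over all genes stand with the time course. With RNA-seq scaled by library total, 22 genes of the set were at least 2-fold lower at RC4, against 41.5% of all genes. For PAS use in MT against MB, 5 of 18 genes were called distal with replicates summed, against 798 of 4050 over all genes. Without replicate 3, 2 of 15 were distal and 1 proximal, against 543 and 241 of 3357 over all genes. Without replicate 2, 3 of 18 were distal and 0 proximal, against 570 and 224 of 3668. For AS against NT with replicates summed, 2 of 29 were called distal and 4 proximal, against 286 and 482 of 4579 over all genes. Without replicate 2, 2 of 22 were distal and 2 proximal, against 193 and 288 of 3234. Without replicate 1, 1 of 27 was distal and 3 were proximal, against 223 and 370 of 3972. At over 10 points, 0 of 21 were called, against 6 distal and 30 proximal of 2804.

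The replicate block moved the counts in TIA1 against input, where a pair shares a lysate: in NT, 3 genes were then higher and 5 lower in TIA1, and in AS, 2 higher and 2 lower. In MT against MB of total RNA, where same-numbered libraries did not deviate together (r = 0.06), 40 genes were lower and 2 higher with the block as without it. Leaving out libraries was not run for Ft against 4sU, where no residual degrees of freedom remain. Depth limits Ccne2, Cdc6, Mcm4 and Pcna, which had few reads.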

Other observations

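The untreated NIH3T3 libraries of total RNA differed from each other in several genes of the set. Rrm1, the large subunit of ribonucleotide reductase, had 18.4, 11.6 and 396 RPM in NT replicates 1, 2 and 4, and 21.8, 7.17 and 371 RPM in the AS libraries of the same numbers. Mki67 had 33.3, 145 and 14.1 RPM in NT and 25.2, 161 and 17.0 RPM in AS. Birc5 had 1015, 635 and 114 RPM in NT. In Rrm1 and Mki67, NT and AS of a number were close. In all 3 genes the numbers lay far apart, in an order that differed from gene to gene.

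PAS use differed between untreated libraries as well. The distal of the 2 main PASs took 80.5% of Rrm2 reads in NT replicate 1 and 29.1% in NT replicate 2. For Ccnd1 the shares were 95.8% and 26.9%, and for Tpx2 26.5% and 70.4%. In AS of the same numbers they were 77.02% and 34.1% for Rrm2, 96.1% and 36.5% for Ccnd1, and 36.9% and 66.5% for Tpx2.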
